A study of Homo sapiens with 18 samples.

Results

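The small Cajal body RNA (scaRNA) genes measured in 6 lines of HEK cells are described here. Members were all genes whose symbol begins with SNORA, SNORD or SCARNA, host genes excluded, with 1 probe set per symbol. This gave 23 genes of the 14884 with a symbol, and all 23 were SCARNA genes. No SNORA or SNORD symbol occurred in the probe annotation used, so nothing is said here of the nucleolar RNAs. Each member had 1 probe set. Of the 23, 22 passed the filter on dim probe sets, which required at least 3 of 18 arrays above 5.6 on the log2 scale. SCARNA11 exceeded that level on 2 arrays, with values from 4.85 to 5.80, and was not tested. SCARNA15, which exceeded it on 4 arrays, lay just inside the limit.

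ScaRNAs are short guide RNAs of the Cajal body, a nuclear compartment in which the RNAs of the spliceosome are modified. Box C/D scaRNAs, such as SCARNA2, SCARNA7, SCARNA9 and SCARNA17, bind fibrillarin (FBL) and guide ribose methylation. H/ACA scaRNAs, such as SCARNA1, SCARNA3, SCARNA4, SCARNA8, SCARNA14, SCARNA16 and SCARNA22, bind dyskerin and guide the conversion of uridine to pseudouridine. SCARNA5, SCARNA6, SCARNA10 and SCARNA12 carry domains of both kinds. Most scaRNAs are cut out of the introns of a host gene after splicing, whereas SCARNA2 and SCARNA17 have transcription units of their own. In the annotation used for gene order, 22 members lay inside another gene and SCARNA2 in none.

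HEK is an established line of human embryonic kidney cells. CRISPR/Cas9 editing gave 3 lines labelled ATXN1L-KO (A10, A30 and B21), and the 3 lines labelled ATXN1L-WT were 2 CRISPR controls (N4 and N8) and the parental cells. ATXN1L encodes a partner of the transcriptional repressor CIC. All lines were grown in DMEM with serum, and puromycin selection and isolation as single colonies are given for every sample, the parental cells included. Each line had 3 biological replicates, numbered 1 to 3, so that 9 arrays carried each genotype label. Total RNA was extracted with a kit that keeps small RNAs and measured on Affymetrix arrays. Values are log2 levels per probe set, and a difference of 1 on that scale is a doubling. Levels of different probe sets are not compared, because each has its own brightness.

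The array medians lay between 5.09 and 5.18 over all probe sets. ATXN1L itself averaged 7.41 ± 0.06 in KO-labelled lines and 7.16 ± 0.05 in WT lines (SD, n = 3 lines each), a difference of 0.25 ± 0.08 (SE) with an adjusted p of 0.468 by limma. Which stretch of ATXN1L was edited is not stated, so this level does not check the labels. Of 12 listed HEK and embryonic kidney markers, 9 had a symbol and 8 were tested. KRT18, VIM and WT1 were the brightest, PAX2 lay at the filter level (5.25 to 5.85, median 5.545) and PAX8 stayed dim. Of 8 listed markers of other cell types only 3 had a symbol. None of these 3 passed the filter, and the highest of their values was 5.14. A10 replicate 1 stood apart: after each gene's mean over all arrays was removed, its profile correlated at 0.014 and 0.135 with the other A10 arrays and at 0.395 with N4 replicate 1. Replicate 1 of the parental cells correlated at 0.368 and 0.372 with its own line, and replicate 1 of N4 at 0.338 and 0.371. These arrays correlated more closely with each other, at 0.415. Counts of passing members that moved by over 1.5 times without A10 replicate 1 are given beside the count.

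The mean levels of the 22 tested members ran from 5.23 to 10.21. The spread between replicates of a line was a median SD of 0.172 over the members, from 0.087 to 0.431, against a median of 0.123 over all 9686 genes tested. The 6 line means of a member spanned a median of 0.40, against 0.33 over all genes tested. For 5 members the span exceeded 0.5. A30 was the highest line for 11 of the 22 members, and B21 was the lowest for 10. Shares over all genes tested are not given for these counts, so they do not set the members apart from other genes. SCARNA9L had the widest span, 1.13, followed by SCARNA8 with 1.06 and SCARNA15 with 0.81. SCARNA3 spanned 0.54 and SCARNA17 spanned 0.51. SCARNA27 had the narrowest span, 0.16.

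No member passed the test between the 3 KO-labelled and the 3 WT lines, which was made on line means with limma and Benjamini-Hochberg adjustment over all genes tested. The background was the same, with 0% of 9686 genes passing. For 1 gene, an exact permutation test of 6 line means cannot give a two-sided p below 0.1. At an unadjusted p under 0.05 there were 3 members, against 937 of all genes tested (9.67%). All 3 were lower in KO-labelled lines, and they were also the members whose line means did not overlap in that direction (background 7.20%). None had all KO-labelled lines above all WT lines (background 7.35%). The median difference of the 22 members was -0.09, with 9 higher and 13 lower, and that of all genes tested was -0.0022. In bulk RNA, fewer cells carrying a transcript and less of it per cell cannot be told apart.

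SCARNA12, which guides modification of the U5 spliceosomal RNA and lies within PHB2, had the lowest p of the members. Its levels were 10.14, 9.90 and 10.01 in A10, 10.29, 10.05 and 10.16 in A30, and 10.06, 10.03 and 9.85 in B21, against 10.33, 10.22 and 10.26 in N4, 10.49, 10.46 and 10.34 in N8 and 10.53, 10.47 and 10.27 in the parental cells. Every KO-labelled line mean was below every WT line mean, although A30 replicate 1 lay above 3 of the WT arrays. The line means averaged 10.05 ± 0.10 in KO-labelled lines and 10.37 ± 0.09 in WT lines (SD, n = 3 each). The difference was -0.32 ± 0.09 (SE), a ratio of 0.801, with an adjusted p of 0.421 by limma. PHB2, a protein of the inner mitochondrial membrane, differed by -0.12 ± 0.09 between the same lines (adjusted p = 0.683).

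SCARNA22, an H/ACA scaRNA within the histone methyltransferase gene NSD2, averaged 10.08 ± 0.02 in KO-labelled lines and 10.32 ± 0.13 in WT lines (SD, n = 3 each). Its arrays overlapped, from 9.96 to 10.21 in KO-labelled lines and from 9.96 to 10.71 in WT lines. The difference was -0.24 ± 0.09 (SE), with an adjusted p of 0.472 by limma. SCARNA14, in TIPIN, was 5.90 ± 0.02 against 6.10 ± 0.07 in the WT lines (SD, n = 3 each), a difference of -0.20 ± 0.08 with an adjusted p of 0.475 by limma. SCARNA15 had a difference of -0.33 ± 0.19 at low signal (adjusted p = 0.612 by limma). In the other direction stood SCARNA8, at 0.36 ± 0.19 (adjusted p = 0.585 by limma). Without N8 that difference was 0.13, with an adjusted p of 0.755. SCARNA9 (0.11), SCARNA5 (0.07) and SCARNA4 (0.06) followed, each with an adjusted p over 0.8.

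**Figure D1:**
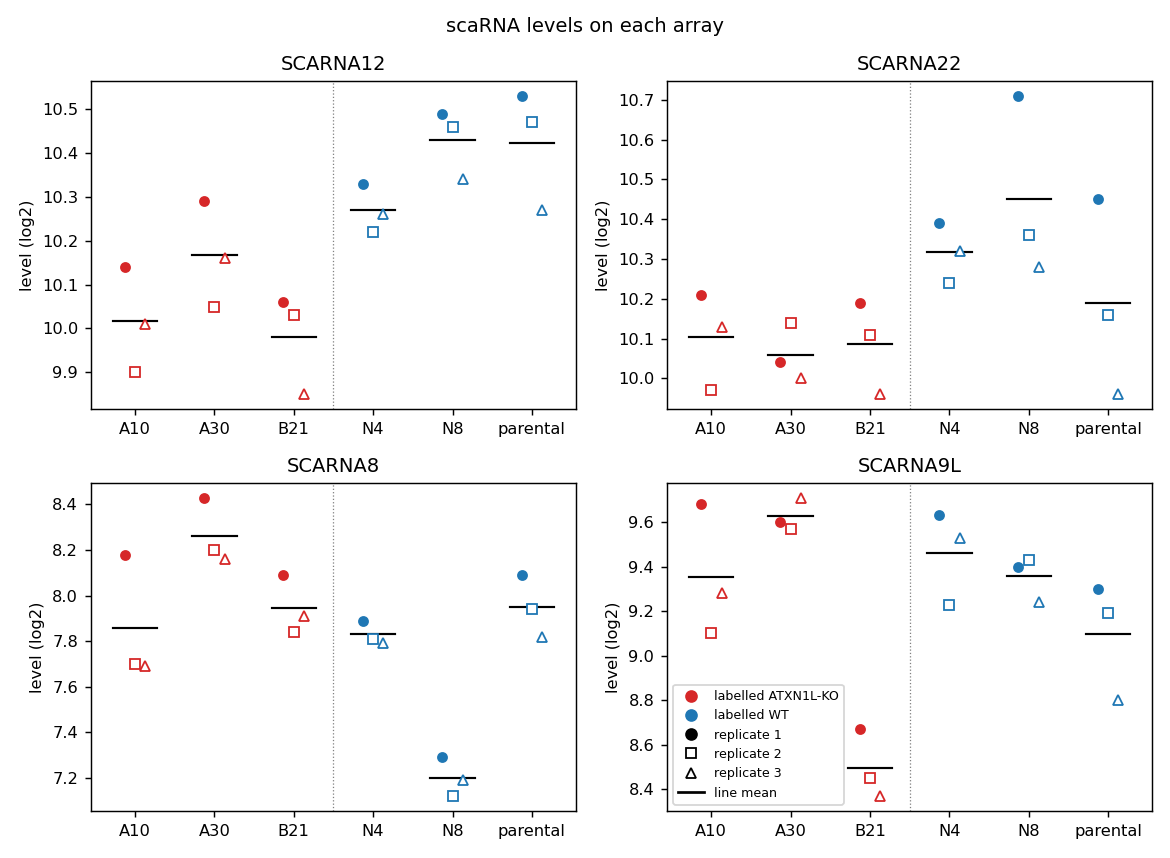
Log2 level of SCARNA12, SCARNA22, SCARNA8 and SCARNA9L on each of 18 arrays, by line, with KO-labelled lines in red and WT lines in blue; marker shape gives the replicate number and the bar the line mean. SCARNA12 lies lower in A10, A30 and B21 than in the WT lines, SCARNA8 is lowest in N8 (7.12 to 7.29), and SCARNA9L is low in B21 (8.37 to 8.67).

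Single lines were then compared on arrays, with 1 spread shared by all 18 arrays. Their errors reflect replicate cultures and not independent clones, and A10, A30 and B21 share the same 9 WT arrays as their reference. Deviations shared by arrays of the same replicate number stay in this spread. With the replicate number as a block more members passed, and those counts are given at the end. In A10, SCARNA12 was the only one of 22 members to pass, at -0.36 ± 0.07 (SE, ratio 0.780, adjusted p = 0.00593 by limma). The background in A10 was 8.40% of genes in either direction, 3.84% higher and 4.56% lower. Without A10 replicate 2 no member passed, since the adjusted p of SCARNA12 was then 0.0644, and without A10 replicate 1 there were 2. SCARNA17, a box C/D scaRNA that guides U4 methylation, differed by -0.29 ± 0.11 in A10 and did not pass (adjusted p = 0.125 by limma). Without A10 replicate 1 its difference was -0.43 and passed (adjusted p = 0.0225), and it passed in 3 of 27 alternatives.

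In A30, 5 of 22 members passed, 4 higher and 1 lower, against a background of 29.3% of genes (12.9% higher and 16.3% lower). SCARNA8, an H/ACA guide for U2, was 8.43, 8.20 and 8.16 in A30, against 7.89, 7.81 and 7.79 in N4, 7.29, 7.12 and 7.19 in N8 and 8.09, 7.94 and 7.82 in the parental cells. All A30 arrays were above all WT arrays. The difference was 0.60 ± 0.10 (SE), a ratio of 1.52, with an adjusted p of 0.000186 by limma. The low N8 arrays contributed to it: against the parental cells and N4 alone, a comparison added after the values were seen, the difference was 0.37 with an adjusted p of 0.0113.

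SCARNA6 and SCARNA5, mixed-domain scaRNAs that both lie in ATG16L1, an autophagy gene, were also higher in A30. SCARNA6 was 7.48, 7.52 and 7.34 in A30, while the WT arrays ran from 6.95 to 7.43 with a median of 7.18. The difference was 0.28 ± 0.08 (adjusted p = 0.0126 by limma), and it did not pass without A30 replicate 1 (0.0587) or replicate 2 (0.0735). SCARNA5 was 9.29, 9.02 and 9.11 in A30, while the WT arrays ran from 8.64 to 9.12 with a median of 8.90. The difference was 0.26 ± 0.08 (adjusted p = 0.0139 by limma, and 0.125 without A30 replicate 1). For both genes the A30 arrays overlapped the upper WT arrays. ATG16L1 itself differed by 0.14 ± 0.08 in A30 and did not pass (adjusted p = 0.190 by limma).

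SCARNA9, a box C/D guide for U2 within the centriole gene CEP295, was 9.97, 9.91 and 9.84 in A30, while the WT arrays ran from 9.09 to 9.88 with a median of 9.54. The difference was 0.34 ± 0.12 (adjusted p = 0.0438 by limma), and CEP295 was higher by 0.32 ± 0.06 (adjusted p = 0.000447 by limma). SCARNA12 was lower by 0.21 ± 0.07 in A30 (adjusted p = 0.0417 by limma), and PHB2 differed by -0.19 ± 0.06 (adjusted p = 0.0274 by limma). Both scaRNA calls were close to the threshold: SCARNA12 did not pass in 14 of 27 alternatives (adjusted p up to 0.223) and SCARNA9 did not pass in 12 of 27 (up to 0.152). The count of members was 2 without A30 replicate 1 or A30 replicate 2, and 3 without parental replicate 2, N4 replicate 3, N8 replicate 2, A10 replicate 3 or B21 replicate 2. SCARNA22 had a difference of -0.26 ± 0.10 in A30 that did not pass (adjusted p = 0.0575 by limma), beside NSD2 at -0.30 ± 0.07 (adjusted p = 0.00255 by limma).

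In B21, 3 of 22 members passed and all 3 were lower, against a background of 16.0% in either direction, 8.82% higher and 7.20% lower. SCARNA9L, a gene on chromosome X named for its likeness to SCARNA9, was 8.67, 8.45 and 8.37 in B21, while the WT arrays ran from 8.80 to 9.63 with a median of 9.30. All B21 arrays were below all WT arrays, and below all arrays of A10 (9.10 to 9.68) and A30 (9.57 to 9.71). The difference from the WT lines was -0.81 ± 0.12 (SE), a ratio of 0.571, with an adjusted p of 0.000227 by limma. It passed in all 27 alternatives run, with values from -0.90 to -0.75. SCARNA9 in the same line was 9.64, 9.35 and 9.30, and differed from the WT lines by -0.14 without passing. The probe sets of these near-identical genes may share signal, which was not tested.

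SCARNA12 was lower in B21 by 0.39 ± 0.07 on the log2 scale (adjusted p = 0.00154 by limma), and this passed in all 27 alternatives. PHB2 differed there by -0.04 ± 0.06 (adjusted p = 0.720 by limma). SCARNA7, a box C/D guide for U1 within the importin gene KPNA4, was 7.88, 7.80 and 7.78 in B21, while the WT arrays ran from 7.82 to 8.46 with a median of 8.07. The difference was -0.27 ± 0.09 (adjusted p = 0.0430 by limma). It did not pass in 13 of 27 alternatives, with an adjusted p of 0.163 when N8 was left out of the WT lines. Without parental replicate 3, or without A10 replicate 1, the count of members in B21 was 5 (without A10 replicate 1, SCARNA8 and SCARNA21 were added). SCARNA8 (0.29 ± 0.10, adjusted p = 0.0528) and SCARNA21 (-0.25 ± 0.09, adjusted p = 0.0575) did not pass by limma, and with N8 left out of the WT lines the difference of SCARNA8 was 0.06.

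**Figure D2:**
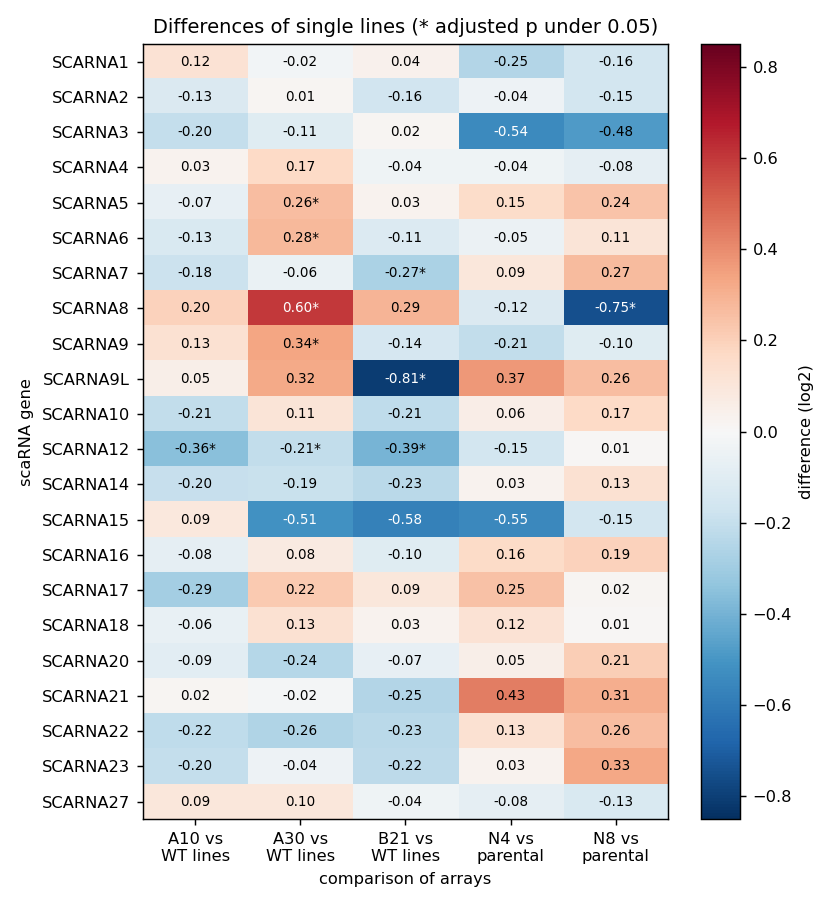
Log2 differences of the 22 tested scaRNA genes in A10, A30 and B21 against the WT lines and in N4 and N8 against the parental cells; colour gives sign and size, and an asterisk an adjusted p under 0.05 by limma. SCARNA12 is lower in A10, A30 and B21, with -0.81 for SCARNA9L in B21 and -0.75 for SCARNA8 in N8 as the most negative values.

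The CRISPR control clones were compared with the parental cells in the same way. In N4 no member passed (background 0.547%), and 3 members had an unadjusted p under 0.05, as had 13.2% of all genes tested. The lowest belonged to SCARNA21, an H/ACA scaRNA within CHD3, which was 6.99, 7.08 and 7.16 in N4, against 6.78, 6.66 and 6.49 in the parental cells. Its difference was 0.43 ± 0.11 (adjusted p = 0.0762 by limma). SCARNA3 had -0.54 ± 0.20 (adjusted p = 0.259 by limma), and SCARNA9L had 0.37 ± 0.15 (adjusted p = 0.294 by limma). Without A10 replicate 1, which enters the shared spread, SCARNA21 passed in N4 (adjusted p = 0.0458).

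In N8, 1 member passed (background 14.7% in either direction, 7.67% higher and 7.03% lower). SCARNA8 was 7.29, 7.12 and 7.19 in N8, against 8.09, 7.94 and 7.82 in the parental cells, with no overlap. The difference was -0.75 ± 0.12 (SE), a ratio of 0.595, with an adjusted p of 0.000572 by limma, and it passed in all 26 alternatives run. No array of any other line was below 7.69. SCARNA21 (0.31 ± 0.11, adjusted p = 0.0582) and SCARNA5 (0.24 ± 0.09, adjusted p = 0.0896) came next and did not pass by limma. The count in N8 was 4 without parental replicate 1, and 2 without A10 replicate 1, A10 replicate 2 or B21 replicate 3.

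The genes around the members were read in annotation order, 10 tested genes on each side, a display chosen after the values were seen. Around SCARNA8, from DMAC1 to DMRTA1 on chromosome 9, 19 of 20 neighbours were lower in N8 than in the parental cells. Their median difference was -0.42, beside -0.75 for SCARNA8. RPS6, a ribosomal protein gene, differed by -0.62, RRAGA by -0.59 and PSIP1 by -0.96, whereas DMRTA1 differed by 0.84. Against the WT lines, which include N8, 18 of these 20 neighbours were higher in A30, with a median of 0.24 beside 0.60 for SCARNA8. In A10 and B21 19 of 20 were higher, with medians of 0.15 and 0.21 beside 0.20 and 0.29 for SCARNA8. Around SCARNA9L, from RAI2 to ZFX-AS1, 8 of 20 neighbours were lower in B21 than in the WT lines and their median was 0.07. The lowest of them was -0.28, so that SCARNA9L at -0.81 lay below all 20. Around SCARNA12 the median difference between KO-labelled and WT lines was -0.04, with 13 of 20 neighbours lower. In single lines, 17 of these 20 neighbours were lower in A10, 14 in A30 and 10 in B21. Their medians were -0.10, -0.07 and -0.01, beside -0.36, -0.21 and -0.39 for SCARNA12. Around SCARNA7 in B21, 18 of 20 neighbours were lower, with a median of -0.17 beside -0.27 for SCARNA7. Around SCARNA22 in A30 the median was -0.20, beside -0.26 for SCARNA22. Gene copy number was not measured, and its part in these differences was not tested.

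**Figure D3:**
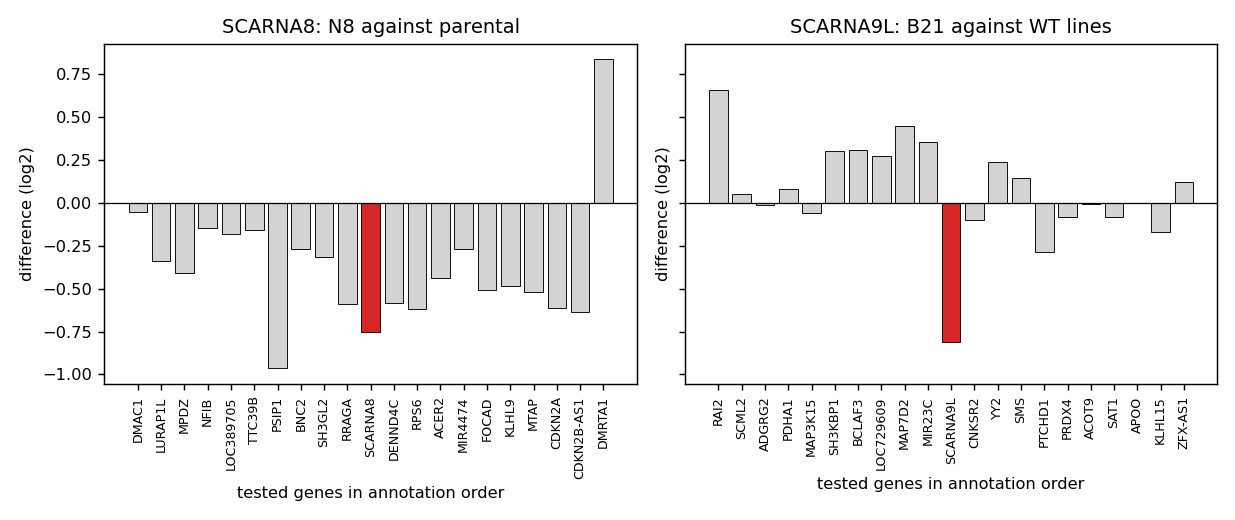
Log2 differences of SCARNA8 in N8 against the parental cells (left) and of SCARNA9L in B21 against the WT lines (right), red, with the 10 tested genes on each side in annotation order, grey. Around SCARNA8 19 of 20 neighbours are lower, while around SCARNA9L 12 of 20 are not and the lowest is -0.28.

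Lines that carry the same genotype label also differed. Among the 3 KO-labelled lines, 6 of 22 members passed limma's F test (background 25.8%). These were SCARNA9L, SCARNA6, SCARNA17, SCARNA5, SCARNA8 and SCARNA10. SCARNA17 was 9.09, 8.72 and 8.59 in A10, 9.63, 9.18 and 9.13 in A30, and 9.33, 9.12 and 9.10 in B21, and its line means spanned 0.51 (adjusted p = 0.0229 by limma). SCARNA10, a mixed-domain guide for U5, averaged 8.49 ± 0.13 in A10, 8.81 ± 0.08 in A30 and 8.48 ± 0.14 in B21 (SD, n = 3 arrays each; adjusted p = 0.0466 by limma). A30 had the highest mean of the 3 lines for all 6 members, a count without a share over all genes beside it. The count was 2 without A10 replicate 2, and 3 without A10 replicate 3 or A30 replicate 1.

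Among the 3 WT lines, 2 of 22 members passed the same F test (background 16.1%). They were SCARNA8, with a span of 0.75 (adjusted p = 0.000821 by limma), and SCARNA21, with 0.43 (adjusted p = 0.0216 by limma). For SCARNA8, N8 was the low line, at 7.20 ± 0.09, with N4 at 7.83 ± 0.05 and the parental cells at 7.95 ± 0.14 (SD, n = 3 arrays each). For SCARNA21 the parental cells were the low line, at 6.64 ± 0.15, with N8 at 6.95 ± 0.01 and N4 at 7.08 ± 0.09 (SD, n = 3 arrays each). SCARNA21 did not pass without parental replicate 2, parental replicate 3 or N4 replicate 3, and the count was then 1.

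Across the 6 lines, replicate 1 differed from the other replicates in several members. With the line as a term in the fit, 8 of 22 members were higher in replicate 1 than in replicates 2 and 3 and none was lower, against a background of 8.74% of genes higher and 9.81% lower. Comparing replicate 1 with the others was proposed with earlier results of these data known. Its p-values are thus not those of a comparison set in advance. The labels give replicate numbers without saying what cultures of the same number shared. Of the 22 members, 18 had a positive difference and 4 a negative one. Their median was 0.16, against -0.01 over all genes tested. In 5 members replicate 1 exceeded the mean of the other 2 replicates in every line (background 8.05%): SCARNA3, SCARNA7, SCARNA8, SCARNA12 and SCARNA17. SCARNA5 exceeded it in every line but N4, where the 2 values were equal. No member was below it in every line (background 9.18%).

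SCARNA3, an H/ACA scaRNA within the ubiquitin ligase gene COP1, had the largest difference. Its replicate 1 levels were 6.03 in A10, 5.95 in A30, 6.16 in B21, 6.15 in N4, 5.93 in N8 and 6.62 in the parental cells, while replicates 2 and 3 ran from 5.32 to 6.14 with a median of 5.73. Replicate 1 was the highest array of its own line in all 6 lines. The difference was 0.43 ± 0.06 (SE), a ratio of 1.35, with an adjusted p of 0.000947 by limma. SCARNA17 was also highest in replicate 1 in all 6 lines, by 0.28 ± 0.05 (adjusted p = 0.00156 by limma). So was SCARNA8, by 0.23 ± 0.05 (adjusted p = 0.00400 by limma). These 3 members passed in every alternative run.

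SCARNA22 was higher in replicate 1 by 0.20 ± 0.06 (adjusted p = 0.0275 by limma). In N8 replicate 1 was 10.71, with 10.36 and 10.28 in replicates 2 and 3, and in the parental cells it was 10.45, with 10.16 and 9.96. SCARNA22 did not pass without parental replicate 1 (0.0840) or N8 replicate 1 (0.0991). SCARNA7 was higher by 0.17 ± 0.05 (adjusted p = 0.0233 by limma), and did not pass without N8 replicate 1 (0.0854) or A10 replicate 1 (0.0679). SCARNA2, SCARNA12 and SCARNA5 lay close to the threshold. SCARNA2, a box C/D guide for U2, was higher by 0.23 ± 0.08 (adjusted p = 0.0497 by limma), SCARNA12 by 0.14 ± 0.04 (0.0353) and SCARNA5 by 0.14 ± 0.05 (0.0483). SCARNA2 did not pass in 20, SCARNA12 in 19 and SCARNA5 in 18 of 30 alternatives. The count of members was 4 without N8 replicate 1, and 5 without parental replicate 1, parental replicate 3, N8 replicate 3, A10 replicate 1 or A10 replicate 2.

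SCARNA1 had a larger difference with more spread, 0.29 ± 0.10, and did not pass (adjusted p = 0.0562 by limma). In B21 its replicate 1 was the lowest array of the line, at 5.88, with 6.16 and 6.41 in replicates 2 and 3. SCARNA9L (0.22 ± 0.08, adjusted p = 0.0520) and SCARNA10 (0.16 ± 0.06, adjusted p = 0.0660) did not pass by limma either. SCARNA23, an H/ACA guide for U6, and SCARNA18 each had 0.23 and did not pass. The 4 negative differences were those of SCARNA20 (-0.13), SCARNA15 (-0.11), SCARNA6 (-0.04) and SCARNA27 (-0.02), each with an adjusted p over 0.5.

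Within lines, the median difference of the 22 members between replicate 1 and the other replicates was 0.18 in A10, 0.07 in A30, 0.09 in B21, 0.14 in N4, 0.16 in N8 and 0.20 in the parental cells. The corresponding medians over all genes tested lay between -0.025 and 0.005. The number of members higher in replicate 1 was 15 in A10, 14 in A30, 13 in B21, 19 in N4, 17 in N8 and 20 in the parental cells. The share of all genes higher in replicate 1 is not given for these counts. No member passed a test of whether the replicate 1 difference depended on the genotype label (background 0.0103%). At an unadjusted p under 0.05 there were 4 members (7.89% of all genes tested), with SCARNA20 at -0.69 ± 0.22 for KO-labelled minus WT lines (adjusted p = 0.453 by limma). In SCARNA20, replicate 1 was 5.58 in A30, with 6.45 and 6.50 in its other replicates. Between replicates 3 and 2 no member passed (background 0%), and no member had an unadjusted p under 0.05, against 7.5% of all genes tested.

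**Figure D4:**
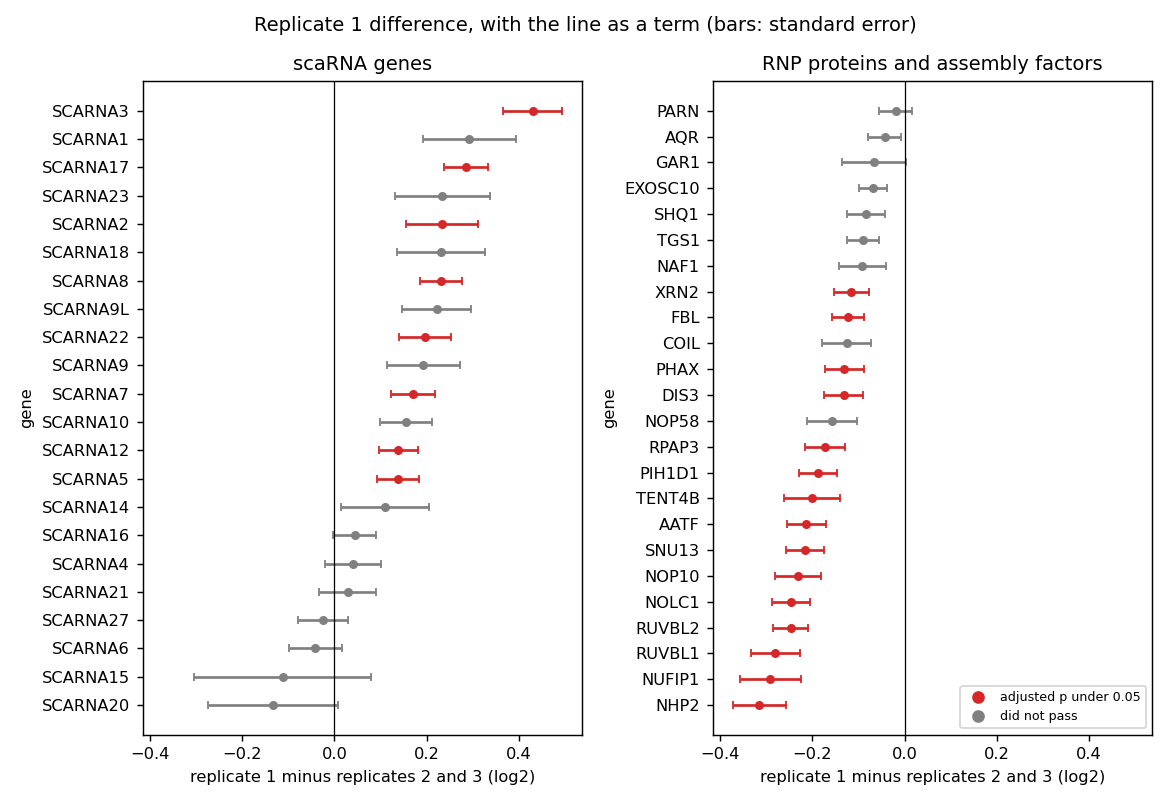
Log2 difference of replicate 1 from replicates 2 and 3, with its standard error and the line as a term, for the 22 tested scaRNA genes (left) and 24 proteins of the guide RNA particles or their assembly (right); red marks an adjusted p under 0.05 by limma. The scaRNA genes that passed, 8 of 22, lie above 0, from 0.14 to 0.43, while all 24 protein genes lie below 0.

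Genes for the proteins that bind or assemble these RNAs were read in the same fits, from lists chosen with earlier results known. Of 34 listed genes 24 were tested, and in replicate 1 all 24 were lower than in replicates 2 and 3. Of these, 15 passed, all lower (background 9.81%), with a median difference of -0.14 over the 24, against -0.01 over all genes tested. NHP2, a core H/ACA protein, differed by -0.32 ± 0.06 (adjusted p = 0.00259 by limma). NOP10, of the same core, differed by -0.23 ± 0.05 (adjusted p = 0.00654 by limma), and the C/D methyltransferase FBL by -0.12 ± 0.03 (adjusted p = 0.0222 by limma). The assembly helicases RUVBL1 and RUVBL2 differed by -0.28 ± 0.05 and -0.25 ± 0.04 (adjusted p = 0.00323 and 0.00109 by limma). GAR1 (-0.07), COIL (-0.13) and NOP58 (-0.16) did not pass. Between KO-labelled and WT lines none of the 24 passed, as no gene did, and their median difference was -0.04. In single lines, 11 of the 24 passed in A30, 4 higher and 7 lower (background 29.3%), 4 in B21 (background 16.0%), 2 in N8 (14.7%), 1 in A10 (8.40%) and 0 in N4 (0.547%). In A30 the H/ACA assembly factor NAF1 was lower, at -0.48 ± 0.07 (adjusted p = 0.000134 by limma), as were the core proteins NOP10, at -0.47 ± 0.10 (0.00218), and GAR1, at -0.32 ± 0.09 (0.0159). The assembly factors SHQ1 and RPAP3 were higher there, by 0.18 ± 0.07 and 0.30 ± 0.08 (adjusted p = 0.0433 and 0.0102 by limma). The core protein NHP2 differed by -0.03 ± 0.13 and did not pass. Neighbouring genes were read for the scaRNA members only, not for these protein genes. Any part of gene copy number in the A30 differences was not tested.

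Other short non-coding RNAs, nearly all microRNA genes, were read beside them. Of 300 tested, 39 were higher and 8 lower in replicate 1 (background 8.74% higher and 9.81% lower), and their median difference was -0.02. Among 10 tested non-coding hosts of nucleolar RNAs, 2 passed in replicate 1, near the background of 18.6% in either direction. ZFAS1 was higher by 0.27 ± 0.03 (adjusted p = 0.00041 by limma) and SNHG16 was lower, at -0.13 ± 0.03 (adjusted p = 0.015 by limma).

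A gene that contains a member was tested for 11 members, as 10 genes. In replicate 1, KHDC4, which contains SCARNA4, was higher by 0.24 ± 0.04 (adjusted p = 0.000781 by limma), while SCARNA4 differed by 0.04 ± 0.06 and did not pass. CHD3, which contains SCARNA21, was higher by 0.22 ± 0.05 (adjusted p = 0.00787 by limma), while SCARNA21 differed by 0.03 ± 0.06. The members that passed in replicate 1 and had a tested containing gene were SCARNA5, SCARNA7, SCARNA12 and SCARNA22, and none of those containing genes passed. KPNA4, which contains SCARNA7, differed by -0.12 ± 0.05 and PHB2, which contains SCARNA12, by -0.11 ± 0.04. In N8, CEP295 was lower by 0.25 ± 0.07 on the log2 scale (adjusted p = 0.0214 by limma), while SCARNA9 differed by -0.10 there without passing.

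Over the 18 arrays, the genes whose values correlated most closely with SCARNA3 were ZNF283 (Pearson r 0.84), SRGAP2 (0.82), TRA2A (0.80), MIR590 (0.79) and ABL2 (0.79). These arrays share lines and replicate numbers, so the values describe likeness over these samples and carry no test.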

How the data were processed

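RNA of 18 samples was measured on Affymetrix arrays, 3 per line. The deposited values are log2 levels per probe set, and the authors used Affymetrix Expression Console, per the submitters' processing notes, with settings not stated in the labels. Of 53617 probe sets, 16098 had exactly 1 gene symbol, 0 several and 37519 none, and the probe set with the highest mean stood for each of 14884 genes. Values were used as deposited, with a pseudocount of 0. Genes with at least 3 arrays above 5.6, the 40th percentile of named genes, were tested, 9686 in all. Detection flags were not used. Precision is limited by how many arrays there are.

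Differences and their standard errors came from limma 3.58.1 in R 4.3.3, two-sided, with Benjamini-Hochberg adjustment over all 9686 genes and a threshold of 0.05. Genotype was tested on 6 line means, single lines on 18 arrays, and replicate numbers with the line as a term. The fits were tested on simulated data. Nothing says whether replicates were grown independently beyond the label of biological replicates. The p-values thus rest on the spread of these samples, between line means for genotype and between arrays of a line otherwise.

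Members and lists were chosen, and the replicate 1 comparison was proposed, with earlier results of these data known. Members named are those with the lowest p in each direction of each comparison, the widest spans of line means, the largest replicate 1 differences and selected guides, with their containing genes. Gene order and names followed the current RefSeq annotation, used without coordinates. Values closer than 1e-06 counted as equal.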

Additional observations from a re-analysis of the deposited data

Results flagged for a closer look

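For 6 scaRNA genes the 3 KO-labelled lines, compared with the same WT lines, differed from one another in limma's F test on arrays, so that their differences from the WT lines were not alike. The KO-labelled line means spanned 1.13 for SCARNA9L on the log2 scale, with B21 low at 8.50, against 9.35 in A10 and 9.63 in A30. They spanned 0.51 for SCARNA17, with A10 low at 8.80 and A30 high at 9.31. SCARNA8 spanned 0.41, SCARNA6 spanned 0.40, and SCARNA5 and SCARNA10 spanned 0.33 each, with A30 the high line in all 4. The background of genes passing this test was 25.8%, and 6 of 22 members is near it.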

How the results depend on the processing

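Over 90 results on single members, 2432 alternative values were computed, of which 2208 kept their direction and their side of the threshold, 139 no longer passed, 66 newly passed and 19 changed sign. Of 26 results that passed, 10 did so under every alternative run. No member passed between KO-labelled and WT lines under any alternative, nor between replicates 3 and 2, nor in the test of the replicate 1 difference by genotype label. Without a filter, the count of members was 3 in A30 (5 as reported), 3 among KO-labelled lines (6) and 3 in replicate 1 (8). With the stricter filter it was 5 in B21 (3) and 2 in N8 (1). Quantile normalization gave 5 in B21, 1 in N4 (0) and 2 in N8, and centring on non-members gave 1 in N4 and 2 in N8. Replicates 2 and 3 alone gave 2 in A10 (1) and 5 among WT lines (2). With the replicate number as a block, the count was 3 in A10, 8 in A30, 6 in B21, 2 in N4, 5 in N8 and 5 among WT lines. Members that newly passed with the block included SCARNA17 in A10 (adjusted p = 0.00826 by limma) and SCARNA22 in A30 (0.0148). SCARNA8 in B21 (0.00376) and SCARNA3 in N8 (0.00517) were others. Deviations from the line mean correlated at -0.004 to 0.514 between same-numbered arrays of different lines (median 0.2, above 0.1 in 39 of 45 pairs, and in 15 of 15 for replicate 1), against a median of -0.153 between different numbers (above 0.1 in 21 of 90). Deviations from a line mean cancel within a line, so positive correlations between same numbers push those between different numbers below 0. The 2 medians are thus not independent of each other. Of 18 arrays, 15 correlated best with their own number. Same-numbered arrays thus tended to deviate together, but not in every pair, and the labels name nothing that they shared, so the fits above carry no block for them. Leaving out a line from the replicate 1 comparison gave 5 without A10, B21 or the parental cells and 3 without N8. Leaving out each array in turn gave 0 to 2 in A10, 2 to 7 in A30, 2 to 5 in B21, 0 to 1 in N4, 1 to 4 in N8, 2 to 7 among KO-labelled lines, 1 to 3 among WT lines and 4 to 9 in replicate 1. Signs changed only in differences that had not passed. Between KO-labelled and WT lines without A30, these were SCARNA9 (-0.0061), SCARNA5 (-0.0194) and SCARNA4 (-0.0022). In A10, SCARNA8 was -0.0333 without N8 among the WT lines, and SCARNA1 ran from -0.0072 to 0.2878 without single arrays, the lowest without A10 replicate 1. In B21, SCARNA5 ran from -0.0028 to 0.0872, negative without B21 replicate 1, and SCARNA1 from -0.0922 to 0.1728, negative without B21 replicate 3 or N4 replicate 2. In N8, SCARNA2 was 0.04 with replicates 2 and 3 alone and ran from -0.2883 to 0.0367 without single arrays, positive without parental replicate 1. In replicate 1, SCARNA20 ran from -0.252 to 0.019 (0.019 also without A30), SCARNA15 from -0.253 to 0.015 (0.015 also without N8) and SCARNA27 from -0.069 to 0.002 (0.002 also without A10 and 0.001 without B21). In the test by genotype label, SCARNA16 ran from -0.0058 to 0.1267, negative without B21 replicate 1. The causes were not tested. Leaving out N8 as a WT line was chosen after seeing the data. Low signal limits SCARNA15, which exceeded the filter on 4 arrays, and SCARNA11, which was not tested. Signal near the filter level also limits SCARNA18, which exceeded it on 13 of 18 arrays, SCARNA3 (16), SCARNA14 (17) and SCARNA20 (17).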
